A study of Mus musculus with 2 samples.

Results

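Integrins and the genes of the adhesion plaque were followed in ATDC5 cells, a mouse cell line that can form cartilage, after a short exposure to Nell-1, a secreted protein with bone-forming activity. The list holds 35 genes, namely the integrin subunits other than beta 1 and a set of plaque genes. A gene was counted as measured where the platform annotation gave at least 1 probe set that symbol alone. This held for 33 of the 35, with 76 probe sets, among 18193 measured genes and 45037 probe sets in all. Itga11 and Ptk2 were not analysed here. The measured genes comprised 19 integrin subunits and 14 plaque genes.

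Both groups were serum-starved and received cycloheximide (CHX), which blocks protein synthesis, at 10 µg/ml for 30 min. The CHX+Nell-1 group then was given Nell-1 (rhNell-1, the recombinant human protein, 100 ng/ml) over a further 30 min, while the CHX+PBS group received PBS for the same time. Each group is 1 RNA sample on 1 Affymetrix mouse array, so the differences below have no replicate check and no p-value or standard error. The stated aim was a screen for primary response genes, whose regulation needs no newly made protein.

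Integrins are cell-surface receptors made of 1 alpha and 1 beta subunit, and they bind matrix proteins outside the cell. Their short cytoplasmic tails recruit talin and kindlin, which activate the receptor and start a plaque that connects to actin filaments. Within the plaque, kinases and docking proteins such as FAK, Src, p130Cas and paxillin carry signals, while vinculin, tensins, zyxin and the ILK-PINCH-parvin complex tie the receptor to actin. Chondrocytes use integrins to attach to collagen and fibronectin.

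The deposited values are linear MAS5 signals, 1 per probe set, and each gene was read from its brightest probe set, the one with the highest mean of both signals. The median signal over all probe sets was 62.6 on the CHX+Nell-1 array and 69.5 on the CHX+PBS array. The 24 poly-A spike-in probe sets, bacterial RNAs added before labelling, were all lower with Nell-1, at a median log2 ratio of -0.49. The 18 hybridisation spike-in probe sets were all lower too, at a median of -0.18. The 3' to 5' signal ratio of the beta-actin control, a sign of RNA integrity, was 1.28 on the CHX+Nell-1 array and 1.32 on the CHX+PBS array. Of 16 chondrogenic markers, 8 lay at or above a mean signal of 64.3, the median over all probe sets. Among them were Sox9 (2577 with Nell-1 and 3375 with PBS) and Col2a1 (1206 with Nell-1 and 909 with PBS). Matn1, Comp, Hapln1 and Cnmd lay below it. With a whole culture in each sample, fewer cells of a type and less RNA per cell cannot be told apart.

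With signals as deposited, most integrin and plaque genes were lower on the CHX+Nell-1 array. Among the 16 members in the brightest signal range, above 652, the largest differences were those of the plaque genes Zyx and Src. Of the 33 genes, 10 were lower with Nell-1 by 1.5-fold or more, 3 were higher by as much and 20 passed neither limit, and 26 log2 ratios lay below 0. The 1.5-fold limit is the submitters' own filter. Among all 18193 genes, 19.0% were that much lower and 13.1% that much higher, so that passing the limit was common. The median log2 ratio of the members, Nell-1 over PBS, was -0.37, against -0.06 for all genes. When ratios were instead scaled to the poly-A spike-ins, which raised the median of all genes by 0.49, the members split into 5 higher and 5 lower, and their median was 0.12. By the same scaling 6704 of the 18193 genes were higher, 1997 were lower and their median was 0.44, so the members stayed below it. The part of this RNA control difference in the members' ratios was not tested.

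Ratios scattered less at higher signal. At or above the median signal of 64.3 lay 24 members, of which 6 were lower by 1.5-fold or more and 0 were higher. Over the 11600 genes at or above it the shares were 7.53% lower and 4.56% higher. In this range 21 of the 24 members had a ratio below 0, which is 87.5%, against 54.2% of all such genes. The 9 dimmer members gave 3 higher and 4 lower, in a range where 28.1% of genes passed the limit as higher and 39.2% as lower. The 84 probe sets of chemosensory receptors, genes not known for a role in cartilage cells, had a 95th percentile of 76.4 for the mean signal. Above that level lay 23 members, 9 of them integrins and all 14 plaque genes. For those 23 the count was 5 lower and 0 higher. The shares of all genes above 76.4 are not given here. The nearest are those at or above 64.3, 7.53% lower and 4.56% higher.

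**Figure D1:**
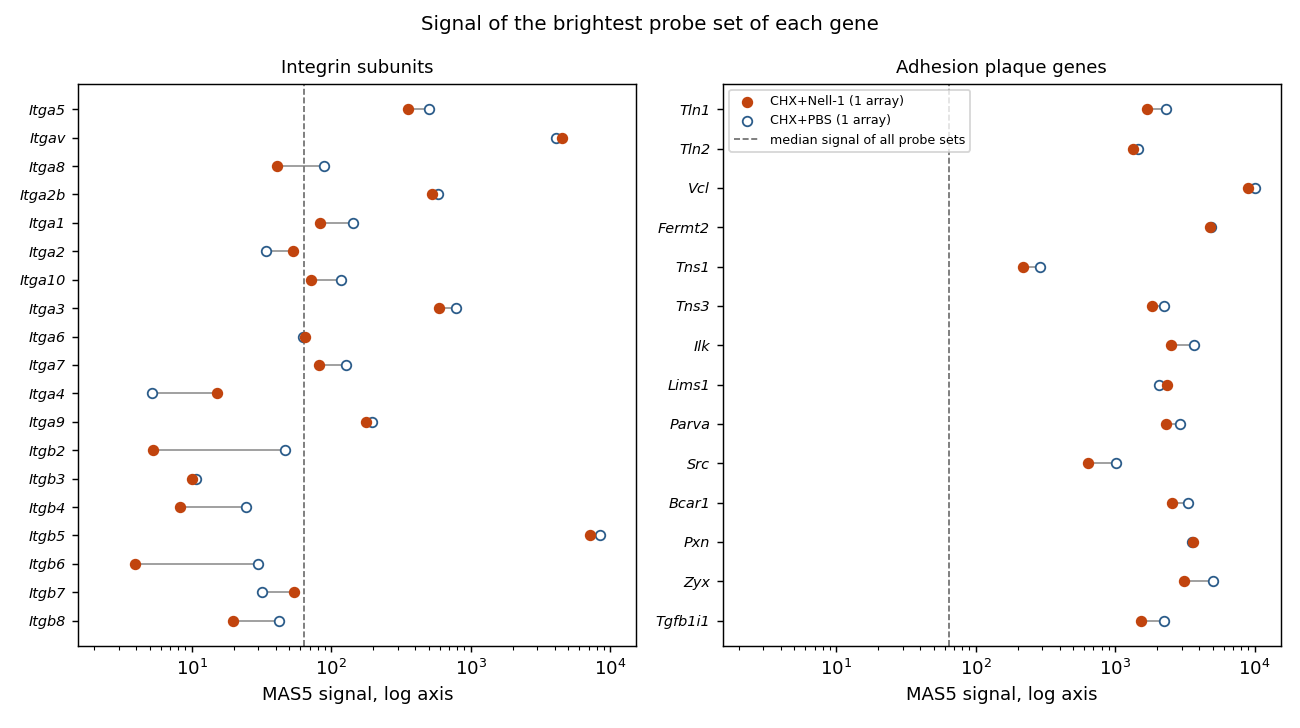
Signals of the brightest probe set of each measured gene on a log axis, with CHX+Nell-1 as filled and CHX+PBS as open points, 1 array each. All 14 plaque genes lie right of the dashed line at 64.3, while 6 of the 7 beta subunits lie left of it by their mean signal.

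As a yardstick of scatter, log2 ratios of all probe sets were divided into 10 equal bins of mean signal, and a robust SD was computed in each. It was 0.21 in the brightest bin and 2.23 in the third. It mixes measurement error with real differences and is no replicate error. By this measure, Zyx, Ilk, Tgfb1i1, Src, Tln1 and Itgb2 lay more than 2 robust SD below the median of their bin, and 0 members lay that far above it. Over all genes 3.96% lay that far below and 3.51% that far above. This limit was chosen after the values were seen.

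Of the alpha subunits that recognise the RGD sequence of fibronectin and vitronectin, Itga8 alone passed 1.5-fold. Itgav, which pairs with several beta subunits, had signals of 4554 with Nell-1 and 4062 with PBS, a log2 ratio of 0.16, and its second probe set gave 0.14. Its 3 other probe sets, below the median signal, were lower, at -0.49, -3.06 and -0.23, and the mean over all 5 was -0.70. By the brightest probe set, Itgav is the only member integrin at or above the median signal that was higher with Nell-1. Itga5, the partner of beta 1 in the main fibronectin receptor, had 354 with Nell-1 and 499 with PBS, 1.41-fold lower. All 4 of its probe sets were lower, with log2 ratios from -1.06 to -0.47. Itga8, which binds nephronectin, measured 41.0 with Nell-1 and 88.4 with PBS, 2.15-fold lower. Its mean signal of 64.7 barely reached the median, and its second, dimmer probe set gave 1.20 in the opposite direction. Itga2b, the platelet subunit, had 526 with Nell-1 and 587 with PBS, a log2 ratio of -0.16. Of the platelet markers, Gp1bb (252 with Nell-1 and 311 with PBS) lay above the median signal as well, while Pf4 (40.6 with Nell-1 and 60.7 with PBS) and Ppbp (2.38 with Nell-1 and 45.0 with PBS) lay below it.

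The collagen-binding alpha subunits all passed the limit, with weak signals. Itga1 measured 83.4 with Nell-1 and 144 with PBS, 1.73-fold lower. Its second, dimmer probe set gave 0.19, and the mean of both, -0.30, was short of the limit. Itga10, a collagen receptor of chondrocytes, had 72.1 with Nell-1 and 117 with PBS, 1.62-fold lower on its only probe set, a call lost with an added constant (-0.58). Itga2 lay on the opposite side, with 53.1 with Nell-1 and 33.8 with PBS, 1.57-fold higher, below the median signal. Each of the 3 ratios lay within 1.08 robust SD of its bin's median, so none stood clear of the scatter at that brightness.

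Laminin receptors gave mixed readings. Itga3 had 595 with Nell-1 and 789 with PBS on its brightest probe set, a log2 ratio of -0.41. Its second probe set, with 103 with Nell-1 and 62.4 with PBS, gave 0.73, so the probe sets of Itga3 disagreed. Itga7, best known from muscle, measured 81.3 with Nell-1 and 128 with PBS, 1.58-fold lower on its only probe set. That call was lost with loess (-0.57), quantile normalization (-0.56) and an added constant (-0.56). Itga1, Itga7 and Itga10 were also short of the limit with the spike-in scaling, at -0.29, -0.16 and -0.20. Itga6 showed almost no difference at 65.2 with Nell-1 and 62.4 with PBS. Desmin and the other skeletal muscle markers were all lower as well, 5 of 5, where 55.3% of all genes had a ratio below 0. Only 2 of the 5 lay at or above the median signal. Their summed signals were 303 with Nell-1 and 530 with PBS. Desmin alone had 91.7 with Nell-1 and 224 with PBS. The part of muscle cells in the Itga7 ratio was not tested.

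The related subunits Itga4 and Itga9 are receptors for VCAM1 and tenascin-C, among other ligands. Itga9 had 176 with Nell-1 and 195 with PBS, a log2 ratio of -0.15, but its second probe set gave 0.90. Itga4, a leukocyte subunit, read 15.1 with Nell-1 and 5.15 with PBS on the brightest of 5 probe sets. The other 4 ranged from -2.97 to 0.50, and all 5 were below the median signal, so no direction can be read for it.

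Among the beta subunits, Itgb5 alone was at or above the median signal, and its 4 probe sets gave nearly the same ratio. Itgb5 pairs with Itgav in a vitronectin receptor. It measured 7161 with Nell-1 and 8423 with PBS, 1.18-fold lower, and the log2 ratios of the 4 probe sets ran from -0.30 to -0.23. Of the 6 other beta subunits, 4 were at least 1.5-fold lower and 1 higher, all below the median signal. Passing was common in that range, where 39.2% of all genes were that much lower and 28.1% that much higher. The leukocyte subunit Itgb2 had the lowest ratio of all members, with 5.24 with Nell-1 and 46.7 with PBS, a log2 ratio of -3.15. The epithelial Itgb6, an activator of latent TGF-beta, had 3.94 with Nell-1 and 29.6 with PBS. Itgb4, of epithelial hemidesmosomes, had 8.29 with Nell-1 and 24.5 with PBS. Itgb8, another activator of latent TGF-beta, had 19.7 with Nell-1 and 42.2 with PBS. Itgb7, used in lymphocyte homing, had 53.9 with Nell-1 and 31.8 with PBS. Itgb3, the partner of Itga2b, had 9.96 with Nell-1 and 10.6 with PBS. Their ratios other than that of Itgb2 lay within 1.23 robust SD of the bin's median. Markers of blood and epithelial cells were mostly dim too. At or above the median signal were 3 of 9 haematopoietic markers, whose summed signals over all 9 were 683 with Nell-1 and 844 with PBS. The epithelial list had 2 of 7, with sums of 592 with Nell-1 and 711 with PBS. Endothelial markers had 0 of 6, with sums of 99.2 with Nell-1 and 251 with PBS. The part of other cell types in these ratios was not tested.

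**Figure D2:**
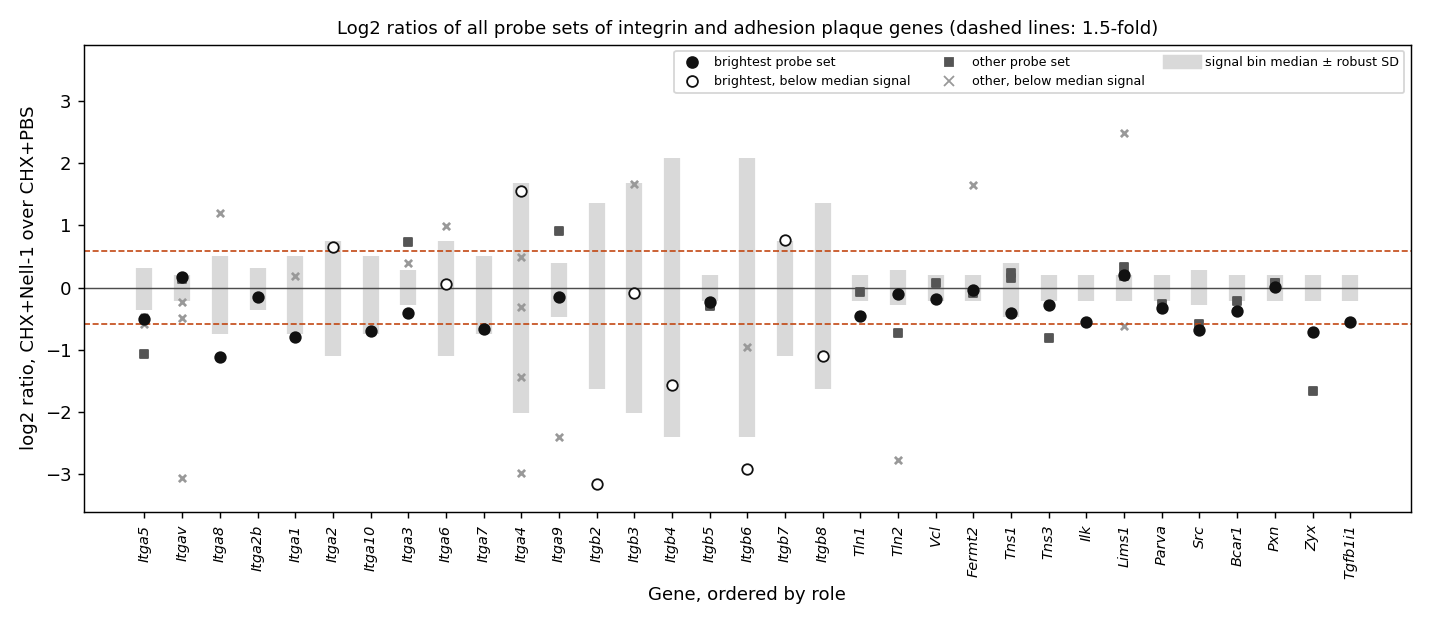
Log2 ratios of CHX+Nell-1 over CHX+PBS for all 76 probe sets, by gene, with the brightest probe set as a circle and the bin median ± robust SD as a grey bar. The probe sets of Itgb5, Src and Pxn lie close together, while those of Itga4, Itga9 and Lims1 spread over both sides of 0.

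Plaque genes were all at or above the median signal. Among the 14, Zyx and Src were lower by 1.5-fold or more, 0 were higher and 12 passed neither limit. Their median log2 ratio was -0.35, beside -0.03 for all genes at or above the median signal. In that range 7.53% of all genes were at least 1.5-fold lower and 4.56% that much higher. Negative ratios were found for 12 of the 14, beside 54.2% of all genes in that range, and Lims1 and Pxn were the exceptions. The spike-in scaling, which shifts all genes alike, left 4 of the 14 below 0.

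Of the proteins that activate integrins or connect them to actin, none passed 1.5-fold on the brightest probe set, and Tln2 and Tns3 were lower by more than that on their second. Vcl, encoding vinculin, measured 8929 with Nell-1 and 10106 with PBS, a log2 ratio of -0.18, and its second probe set gave 0.08. Fermt2, encoding a kindlin, was nearly level at 4768 with Nell-1 and 4883 with PBS. Tln1, the main talin, had 1682 with Nell-1 and 2313 with PBS, 1.38-fold lower, while its second probe set was nearly level at 250.2 with Nell-1 and 262 with PBS. Its paralogue Tln2 was at -0.11 on the brightest probe set at -0.73 on the second and at -2.76 on the dimmest, below the median signal, with a mean of -1.20. The tensins bind actin and the beta tail. Tns3 had 1842 with Nell-1 and 2244 with PBS, a log2 ratio of -0.28, with -0.81 on its second probe set. Tns1 had 217 with Nell-1 and 288 with PBS, and its other probe sets gave 0.23 and 0.15, so its direction was not settled.

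The ILK-PINCH-parvin complex binds beta tails, and its subunits lay on both sides of 0. Ilk, the pseudokinase at its centre, measured 2525 with Nell-1 and 3712 with PBS, 1.47-fold lower and just short of the limit, on its only probe set. Parva, encoding alpha-parvin, had 2320 with Nell-1 and 2925 with PBS, with log2 ratios of -0.33 and -0.26 on its probe sets. Lims1, encoding PINCH1, had 2369 with Nell-1 and 2054 with PBS. All 3 of its probe sets at or above the median signal were higher with Nell-1, at 0.21, 0.33 and 0.19, and none reached 1.5-fold. Its 2 dimmer probe sets disagreed, at -0.61 and 2.48.

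Among the kinases and docking proteins, Src was lower and Pxn was level. Src, a tyrosine kinase that acts with FAK, measured 635 with Nell-1 and 1017 with PBS, 1.60-fold lower. That probe set is of a type that can match several transcripts. Its second probe set, with 374 with Nell-1 and 561 with PBS, was 1.502-fold lower, barely past the limit. Of the 2920 genes in the same signal bin as Src, 2.29% were at least 1.5-fold lower. Bcar1, encoding the Src substrate p130Cas, had 2571 with Nell-1 and 3328 with PBS, 1.29-fold lower, and its second probe set was 1.16-fold lower. Pxn, encoding paxillin, had 3612 with Nell-1 and 3591 with PBS, and its 3 probe sets ranged from 0.01 to 0.08.

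Zyx and Tgfb1i1, which encode LIM domain proteins, had 2 of the 4 lowest ratios among the plaque genes. Lims1 and Pxn encode LIM domain proteins too and were the 2 plaque genes above 0, at 0.21 and 0.01. Zyx, encoding zyxin, which moves to strained actin filaments, measured 3096 with Nell-1 and 5079 with PBS, 1.64-fold lower. On its second probe set, of a type that can match several transcripts, it had 139 with Nell-1 and 439 with PBS, 3.16-fold lower. Zyx lay at -3.40 robust SD from its bin's median. In that bin, the brightest, 0.889% of 2925 genes were at least 1.5-fold lower, and Zyx was the 1 of 13 members in it to pass. Tgfb1i1, encoding the paxillin relative Hic-5, had 1541 with Nell-1 and 2258 with PBS, 1.47-fold lower on its only probe set. With the spike-in scaling the log2 ratios of Zyx and Src were -0.22 and -0.18, short of the limit.

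The upstream sequences of Zyx and Src are shown because they were the bright genes past the limit on both of their probe sets, and that of Vcl because it holds a CArG box, the binding motif of SRF, a factor that ties actin to transcription. Each is the 250 bases before the gene's start from RefSeq, build GRCm38.p6, plus strand, at chr6:42349578-42349827, chr2:157424043-157424292 and chr14:20929148-20929397. Capitals mark the motifs searched on both strands, which were the CArG box, the AP-1 site TGANTCA, the cAMP response element TGACGTCA, the EGR site GCGNGGGCG and the GC box GGGCGG.
Zyx: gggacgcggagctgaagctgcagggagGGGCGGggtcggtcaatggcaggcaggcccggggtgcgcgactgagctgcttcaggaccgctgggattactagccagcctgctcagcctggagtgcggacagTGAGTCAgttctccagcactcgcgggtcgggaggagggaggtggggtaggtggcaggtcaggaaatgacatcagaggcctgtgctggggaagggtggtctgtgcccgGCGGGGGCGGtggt
Src: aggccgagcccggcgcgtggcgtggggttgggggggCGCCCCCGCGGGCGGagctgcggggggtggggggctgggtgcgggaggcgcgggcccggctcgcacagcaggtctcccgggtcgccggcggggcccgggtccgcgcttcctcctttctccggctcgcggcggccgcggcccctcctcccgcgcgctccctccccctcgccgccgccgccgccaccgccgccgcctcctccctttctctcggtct
Vcl: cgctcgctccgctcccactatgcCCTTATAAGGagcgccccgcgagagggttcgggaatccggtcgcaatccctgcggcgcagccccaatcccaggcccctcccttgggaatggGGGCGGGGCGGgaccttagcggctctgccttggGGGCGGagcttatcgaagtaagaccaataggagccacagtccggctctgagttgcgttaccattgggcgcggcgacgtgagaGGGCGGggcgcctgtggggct

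Such windows were found for 25 of the 35 listed genes, 31 windows in all. The AP-1 site of Zyx was the only one among them, and 6.75% of all 32851 windows hold one. EGR sites occurred in 4 of the 31 windows, those of Itga11, Tns3, Src and Zyx, and in 4.70% of all windows. In Zyx the EGR site overlaps a GC box, while in Src a GC box follows it directly. CArG boxes occurred in 3 of the 31 windows, those of Itgb6, Vcl and Fermt2, and in 1.47% of all windows. GC boxes occurred in 15 of the 31 windows, from 13 of the 25 genes, and 32.7% of all windows hold one. No window of a listed gene matched the cAMP response element, found in 1.55% of all windows. Of the genes with CArG boxes, Vcl and Fermt2 had log2 ratios of -0.18 and -0.03. Itgb6, the third, was at -2.91, with a signal below the median. A match describes these letters and does not show binding.

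Where a gene had at least 2 probe sets at or above the median signal, the 2 brightest mostly had ratios of the same sign. This held for 13 of 17 members, 10 lower and 3 higher, and the exceptions were Itga3, Itga9, Vcl and Tns1. Over all 5195 such genes the share was 68.6%, against 76.5% for the members. The probe sets of a gene share the same RNA samples and do not replace replicates.

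**Figure D3:**
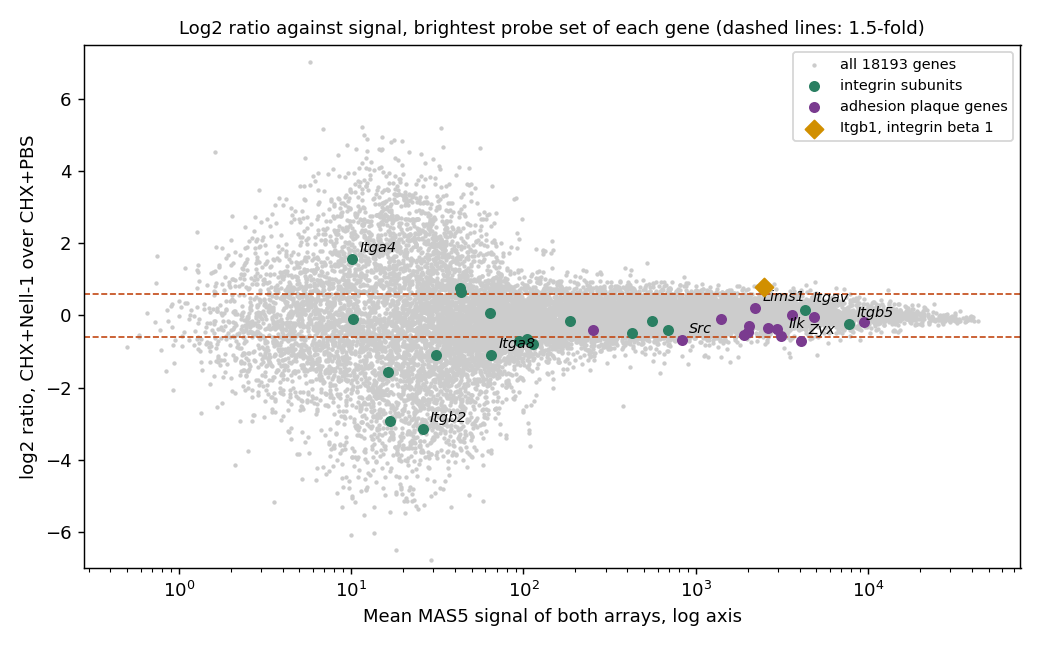
Log2 ratio of CHX+Nell-1 over CHX+PBS against mean signal for all 18193 genes (grey), with integrin subunits in green and plaque genes in purple. Scatter narrows to the right, where Zyx lies below the lower dashed line and Itgb1 above the upper one.

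The beta 1 subunit, the partner of most alpha subunits of the list, differed in direction from most of them on the brightest probe sets. Itgb1 had 3159 with Nell-1 and 1830 with PBS on its brightest probe set, and all 6 of its probe sets were higher, at log2 ratios from 0.43 to 2.50. Its alpha partners Itga1, Itga3, Itga5, Itga7, Itga8, Itga9 and Itga10 had ratios below 0 on their brightest probe sets, from -1.11 to -0.15. Itga2, Itga4, Itga6 and Itgav, which pair with it too, were at 0.65, 1.55, 0.06 and 0.16. Among 9 other integrin subunits and integrin-binding genes, Itgb1 included, 3 passed the limit as higher, 2 as lower and 4 not at all. Of all genes, 13.1% passed as higher and 19.0% as lower. Below the median signal lay 2 of the 3 higher and 1 of the 2 lower. In that range 28.1% of genes passed as higher and 39.2% as lower. Itgb1bp1, which binds the beta 1 tail, was level at 1686 with Nell-1 and 1689 with PBS. Itgbl1, an integrin-like gene, had 61.6 with Nell-1 and 92.8 with PBS, and Itgb3bp was at 0.14.

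Further plaque genes were split between both directions, with 20 ratios above 0 and 22 below. Of these 42, 35 stayed within 1.5-fold, 2 were higher and 5 lower beyond it, and the median was -0.02. At or above the median signal lay 39 of them, with 1 higher and 3 lower. The shares of all genes in that range were 4.56% higher and 7.53% lower. Tns2, the tensin not in the list, had 320 with Nell-1 and 649 with PBS, 2.03-fold lower on its only probe set. Lims2, a second PINCH gene, had 53.2 with Nell-1 and 96.1 with PBS on its only probe set, in the opposite direction to Lims1. The mean signal of Lims2, 74.7, was below the chemosensory receptor level of 76.4. Its ratio lay at -1.18 robust SD from the bin's median. Lasp1, a LIM protein of actin filaments, was 1.59-fold lower on the brightest of 9 probe sets and at -0.21 on the second. Nck1, an adaptor, had 358 with Nell-1 and 228 with PBS, but -0.47 on its second probe set.

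Matrix ligands of integrins also mostly stayed within the limit. Within 1.5-fold lay 24 of 30, while 4 were higher and 2 lower beyond it, and the median was -0.15. Beside these counts, 13.1% of all genes were that much higher and 19.0% that much lower. Of the 4 higher ligands, 3 lay below the median signal, where 28.1% of genes passed as higher. Postn, encoding periostin, a ligand of integrins with the alpha V subunit, had 16116 with Nell-1 and 9968 with PBS, 1.62-fold higher on its only probe set. Lamb1, a laminin chain, had 457 with Nell-1 and 911 with PBS, 1.99-fold lower, and was 1.60-fold lower on its second probe set. Lama5, another laminin chain, and Vcam1, the ligand of Itga4, were both at -0.56, and the other Vcam1 probe sets gave 0.05 and 0.18.

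Genes of actin and its factor SRF were measured because zyxin and vinculin sit on actin. Within 1.5-fold lay 15 of 16, 1 was lower beyond it and 0 were higher, and the median was -0.16. All 16 lay at or above the median signal, where 4.56% of genes were that much higher and 7.53% that much lower. Cnn1, a calponin of smooth muscle, had 27.0 with Nell-1 and 172 with PBS on its only probe set. Cnn2 was at -0.45, Tagln2 at 0.36 and Mrtfa, the actin-regulated partner of SRF, at -0.33. The plot by list sets these ratios beside those of the integrin and plaque genes.

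**Figure D4:**
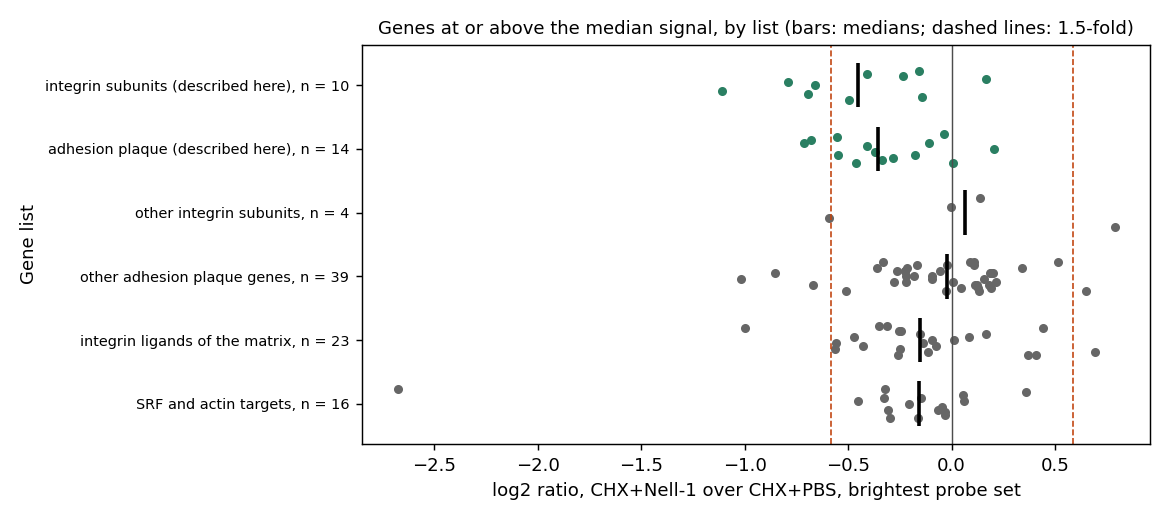
Log2 ratios of CHX+Nell-1 over CHX+PBS for genes at or above the median signal, 1 point per gene, by list, with a bar at each median. Medians are -0.45 for the 10 integrin subunits and -0.35 for the 14 plaque genes, and -0.02 for the 39 other plaque genes.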

How the data were processed

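The data are 2 one-colour Affymetrix arrays, 1 per group. Per the labels, RNA was purified with TRIzol and a column and treated with DNase. The deposited intensities are linear MAS5 signals, made with Affymetrix Expression Console per the submitters' processing notes, which name no version. Each array had a 2% trimmed mean of 500.0. Of 45101 probe sets, 64 controls were set apart. The platform annotation gave 1 symbol to 34945, several to 932 and none to 9160. Symbols in the other lists were updated through RefSeq synonyms.

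Log2 ratios are CHX+Nell-1 over CHX+PBS, with no constant added. With 1 array per group no test was run, and the number of arrays limits the precision. Detection calls were not used here. All members were described. Of the other lists Itgb1 and up to 4 genes per list, those with the largest ratios among genes at or above the median signal, were named. Marker genes were named to check the cell type. The members and lists were chosen with earlier results of these data known. Motifs were searched in RefSeq upstream windows. The code was tested on simulated data. Alternatives were other scalings, an added or floor value of 17.9 (the 25th percentile of the mean signal), other probe sets, thresholds and signal filters. Python 3.11.15, pandas 2.3.3 and statsmodels 0.14.6 (loess, span 0.3) were used.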

Additional observations from a re-analysis of the deposited data

How the results depend on the processing

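With signals as deposited, 3 members were at least 1.5-fold higher and 10 lower, with a median of -0.37. Adding 17.9 to both signals left 0 higher and 8 lower. A 2-fold limit left 1 higher and 5 lower. Members at or above the median signal gave 0 higher and 6 lower. Scaling to the poly-A spike-ins, chosen after seeing the data, gave 5 higher, 5 lower and a median of 0.12, and members above the chemosensory receptor level, likewise added, gave 0 higher and 5 lower. Median centring, loess, quantile normalization, a floor, the mean over probe sets and unshared probe sets gave 2 or 3 higher and 9 to 11 lower. Calls that changed sign were Itga8 at 0.0475 and Itga4 at -0.53, each as the mean over probe sets. With both signals floored, Itga4 was at 0 and lost its call. Src and Zyx passed 1.5-fold under each alternative at that limit other than the spike-in scaling, Src barely with unshared probe sets (-0.5873). Values of single members were also compared over alternatives that include the spike-in scaling. Apart from the 3 values of Itga8 and Itga4 above, 231 moved by no more than the robust SD of their signal bin and 30 by more. Most of those 30 came from the spike-in scaling. Low signal limits the ratios of the 9 integrins below the median. No replicate could be left out with 1 array per group. No paired analysis was possible because each group has 1 array.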
